A study of Mus musculus with 70 samples.

Results

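The immediate early and heat shock genes described here are 45 mouse genes chosen by name, 34 of immediate early or early response type and 11 heat shock and chaperone genes, out of 27179 genes in the deposited count tables. All 45 were found in the tables by their Entrez identifiers. The immediate early genes were divided by role into 7 genes of the AP-1 family, 10 other early transcription factors, 14 early response regulators and 3 genes of proteins that bind AU-rich elements in messenger RNA. No measured value entered the rule that chose them, but earlier results of these data were known when they were chosen. In the 47 libraries compared, 44 members had at least 1 count, 7 were detected in every library, and Nr4a3 had none. A filter on low counts left 41 members for testing among 10972 genes. Egr2, Egr3, Nr4a3 and Dusp5 did not pass it.

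Immediate early genes are transcribed within minutes of a stimulus, without new protein synthesis, when kinase cascades act on factors such as SRF and CREB that are already bound at their promoters. Many of their products are transcription factors, and others are feedback inhibitors: the DUSP proteins remove phosphate from MAP kinases, IκBα (Nfkbia) and A20 (Tnfaip3) restrain NF-κB, and tristetraprolin (Zfp36) hastens the decay of cytokine and early response transcripts. Heat shock genes encode chaperones and are induced by HSF1 when unfolded protein builds up. Both sets are known to respond to tissue dissociation and cell sorting as well as to signals in the tissue.

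The libraries were made from mouse bone marrow. Each sample was 100 cells sorted straight into lysis buffer, and the RNA was measured by CEL-seq, a method of linear amplification that counts 3′ tags of polyadenylated transcripts. The wild-type (WT) populations were common lymphoid progenitors (CLP, 8 libraries), CLP that express the integrin α4β7 (labelled a4b7_CLP, 5), common innate lymphoid progenitors (CILP, 7), a population labelled ILCP (3), which the labels do not tie to a sort gate, and progenitors of group 2 innate lymphoid cells (ILC2P, 8). Libraries from Tcf7-/- mice, labelled TCF7 and lacking the transcription factor TCF-1, were CLP (5), CILP (4) and ILC2P (2), and libraries from Id2-/- mice, lacking an inhibitor of E proteins, were CLP (2), CILP (2) and ILCP (1). The labels give no age, sex, strain or deletion strategy for the mice. They do not say whether the libraries of a group were taken from different mice, and p-values therefore measure only the spread between libraries, which may be technical. The labels name 2 batches, with 22 of the libraries in batch 1 and 25 in batch 2. All Id2-/- libraries were in batch 1, and both Tcf7-/- ILC2P libraries were in batch 2.

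Total counts ran from 19322 to 624668 per library with a median of 134985, and the WT ILC2P libraries were the shallowest group, at 19322 to 80873. WT CLP held 0.879% to 1.72% of counts on 5 CLP markers against 0.131% to 0.277% in WT CILP, and WT CILP held 0.244% to 0.575% on 5 CILP markers against at most 0.0597% in WT CLP. The Id2-/- CILP libraries held 0.029% and 0.0356% on the CILP markers. Markers of other cells passed 1% of counts in 5 libraries. These were ILCP replicate 1 (1.19% on 10 erythroid and megakaryocyte markers), Tcf7-/- CILP replicates 1 and 4 (1.32% and 3.69% on the same list), Id2-/- ILCP replicate 1 (1.84%), and Tcf7-/- ILC2P replicate 1 (19.99% on 7 mature B and plasma cell markers). In bulk samples fewer cells of a type and less RNA per cell cannot be told apart.

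The 34 immediate early members took a larger share of the counts in ILC2P and in part of the ILCP libraries than in the CLP and CILP libraries. Their summed share was 0.743% ± 0.211 (SD, n = 8) in WT CLP, 0.711% ± 0.421 (n = 5) in a4b7_CLP and 0.742% ± 0.189 (n = 7) in CILP. The ILCP replicates 1 to 3 stood at 0.849%, 7.69% and 2.19%. In ILC2P the share was 0.906%, 0.657%, 1.53%, 4.26% and 4.98% in the batch 2 libraries and 2.13%, 2.51% and 2.98% in the batch 1 libraries. All 3 ILC2P libraries of batch 1 and 3 of the 5 of batch 2 lay above every WT CLP and CILP library, whose highest share was 0.991%. ILC2P replicate 1, the shallowest library, had 23.6% of its counts on mitochondrial transcripts, against 2.32% to 10.5% in the other WT ILC2P libraries.

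In their group means the heat shock members did not show that pattern. Their share was 0.484% ± 0.0907 in WT CLP, 0.400% ± 0.0750 in a4b7_CLP, 0.507% ± 0.104 in CILP and 0.408% ± 0.293 in ILC2P (SD, with the same n). ILC2P replicates 4 and 5, which had the highest immediate early shares of ILC2P, also had its highest heat shock shares, at 0.875% and 0.780%. These lay above every WT CLP and CILP library, the highest of which was at 0.645%. The other ILC2P libraries held 0.0932% to 0.457%. The ILCP libraries held 0.172%, 0.317% and 0.336%. ILCP replicate 2, which had the highest immediate early share of all libraries, was thus below every WT CLP and CILP library for the heat shock genes, the lowest of which was at 0.365%. Among the 44 members with counts, 16 had their highest level of all 47 libraries in ILCP replicate 2.

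**Figure D1:**
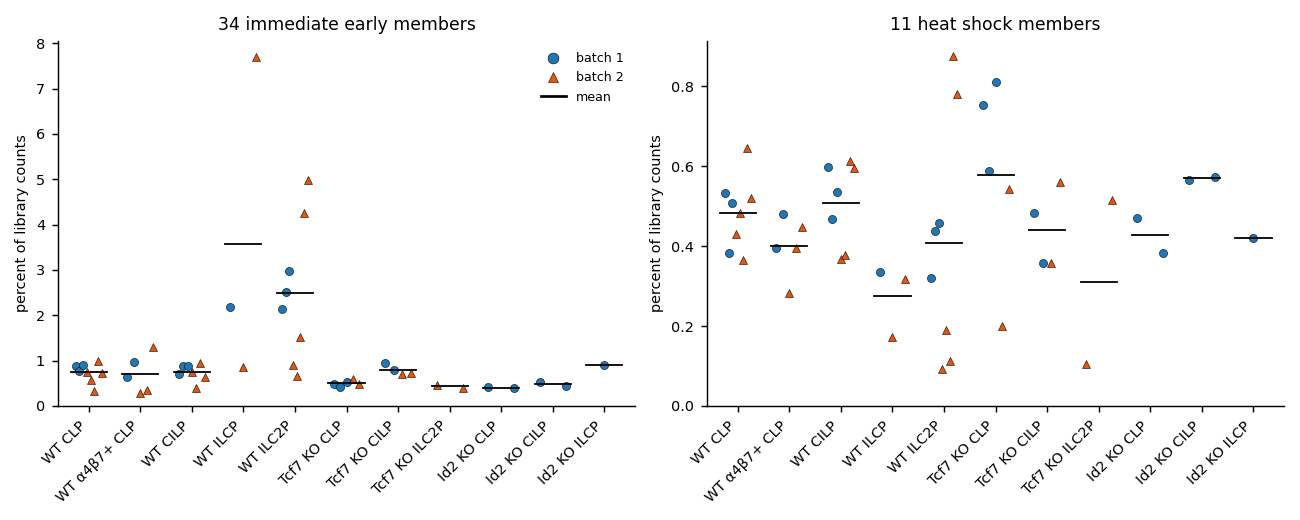
Percent of each library's counts on the immediate early members and on the heat shock members, by group (x axis), with 1 point per library, marked by batch, and a bar at the group mean. ILCP replicate 2 stands at 7.69% for the immediate early members, and the ILC2P libraries spread from 0.657% to 4.98%, while the heat shock shares of ILC2P overlap those of CLP and CILP and those of the 3 ILCP libraries (0.172% to 0.336%) lie below them.

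Levels are given below as CPM, the count divided by the scaled library total and multiplied by 1000000. They come from 3′ tags and were not divided by transcript length. Differences are read between libraries, and genes were ranked by mean CPM only to choose which of each role to describe. Differences were tested in 1 edgeR quasi-likelihood model of group and batch over the 47 libraries. The adjusted p is the Benjamini-Hochberg value over all 10972 genes, called below 0.05, and a log2 fold change is given with its standard error (SE).

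In the AP-1 family, Jun, Fos and Fosb had the highest mean levels. Jun, the main partner of FOS proteins, was at 176 to 3648 CPM in WT CLP (median 863), 324 to 2469.5 in CILP (751) and 138 to 6973 in ILC2P (4192), and at 1832, 2448 and 4728 CPM in the 3 ILCP libraries. Fos was detected in all 47 libraries and ranged from 334 to 2663 CPM in WT CLP (median 872), 641 to 3046 in CILP (1054) and 413 to 3586 in ILC2P (1682). The ranges of both genes overlapped between these populations. Fosb stood at 23 to 244 CPM in WT CLP (median 75), 55.8 to 322 in CILP (174), 69 to 3813 in ILC2P (737), and 474, 4216 and 1287 CPM in ILCP. The ILCP libraries were thus above every WT CLP and WT CILP library. The lowest of them was below a4b7_CLP replicate 3 (853 CPM) and Tcf7-/- CILP replicate 2 (558 CPM). Jund, the AP-1 subunit gene often described as constitutive, differed between the batches, as given further below. Atf3, a stress-induced member of the ATF family, was detected in 12 libraries only, with 2581 CPM in ILCP replicate 2 and at most 385 CPM in the others.

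Among the other early transcription factors, Klf6, Myc and Nr4a1 had the highest mean levels. Klf6, a zinc finger factor, was at 24.5 to 585 CPM in WT CLP (median 108), 73.2 to 689 in CILP (230.1) and 587 to 1645 in ILC2P (797). The lowest ILC2P library stood just above the highest CLP library. Nr4a1, an orphan nuclear receptor gene induced by antigen receptor and other signals, was detected in 31 libraries, with 0 to 203 CPM in WT CLP, 0 to 319.7 in CILP, 0 to 1645 in ILC2P, and 158, 1999 and 0 CPM in ILCP. Nr4a2, its relative, reached 328 CPM in 1 Tcf7-/- CLP library and had a median of 0 in WT CLP and in ILC2P. Egr2 was detected in 2 libraries, with 7 counts in all, and Egr3 in 2 with 4, so nothing can be said of their changes at this depth.

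Among the early response regulators, Btg1, Tnfaip3 and Ier2 had the highest mean levels. Btg1, an antiproliferative gene, was at 58.5 to 2174 CPM in WT CLP, 157 to 2021 in CILP and 69 to 5596 in ILC2P. Tnfaip3 was at 0 to 364 CPM in WT CLP (median 27.4), 0 to 744 in CILP (96.7) and 24.7 to 6980.0 in ILC2P (276), with 242, 10602 and 185 CPM in ILCP. A single ILCP library and ILC2P replicates 4 and 5 (6834 and 6980.0 CPM) had the highest levels of those populations. Of the genes of AU-rich element binding proteins, Zfp36 behaved alike, with 775, 14855 and 362 CPM in ILCP and 4345 and 8047 CPM in ILC2P replicates 4 and 5 against 87.7 to 1093 CPM in the other ILC2P libraries. Zfp36l1, which is needed for lymphocyte development together with Zfp36l2, was more even: 128 to 613 CPM in WT CLP (median 272), 315 to 1929.5 in CILP (690.1), 518 to 2475 in ILC2P (2083), and 1718, 5695 and 2044 CPM in ILCP. Zfp36l2 showed no such order, with medians of 139.5, 123 and 78.8 CPM in WT CLP, CILP and ILC2P.

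Among the heat shock genes, Hsp90ab1, Hspa5 and Hsph1 had the highest mean levels. Hsp90ab1, the constitutive cytosolic HSP90, was at 1814 to 3374 CPM in WT CLP (median 2578), 2293 to 3467 in CILP (2588), 1185, 981 and 1859 in ILCP and 213 to 2424 in ILC2P (1389). Hspa5, the chaperone BiP of the endoplasmic reticulum, was at 294 to 899, 385 to 1171 and 0 to 3007 CPM in WT CLP, CILP and ILC2P, and Hsph1, an HSP110 chaperone, at 0 to 1521, 55.9 to 1388 and 34.5 to 1914 CPM. Both overlapped between the populations. The inducible genes Hspa1a and Hspa1b were sparse, with counts in 26 and 27 libraries. Their transcripts share 1716 windows of 50 bases, 58.8% and 62.3% of each, but none in the last 500 bases where 3′ tags fall. Hspa5 overlaps Rabepk over 1921 bases, Ppp1r15a overlaps Tulp2 over 730 bases, and Hspe1 overlaps Hspd1 over 96 bases. The sources used here do not give whether the counting used strand, so reads from those overlaps cannot be told apart.

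**Figure D2:**
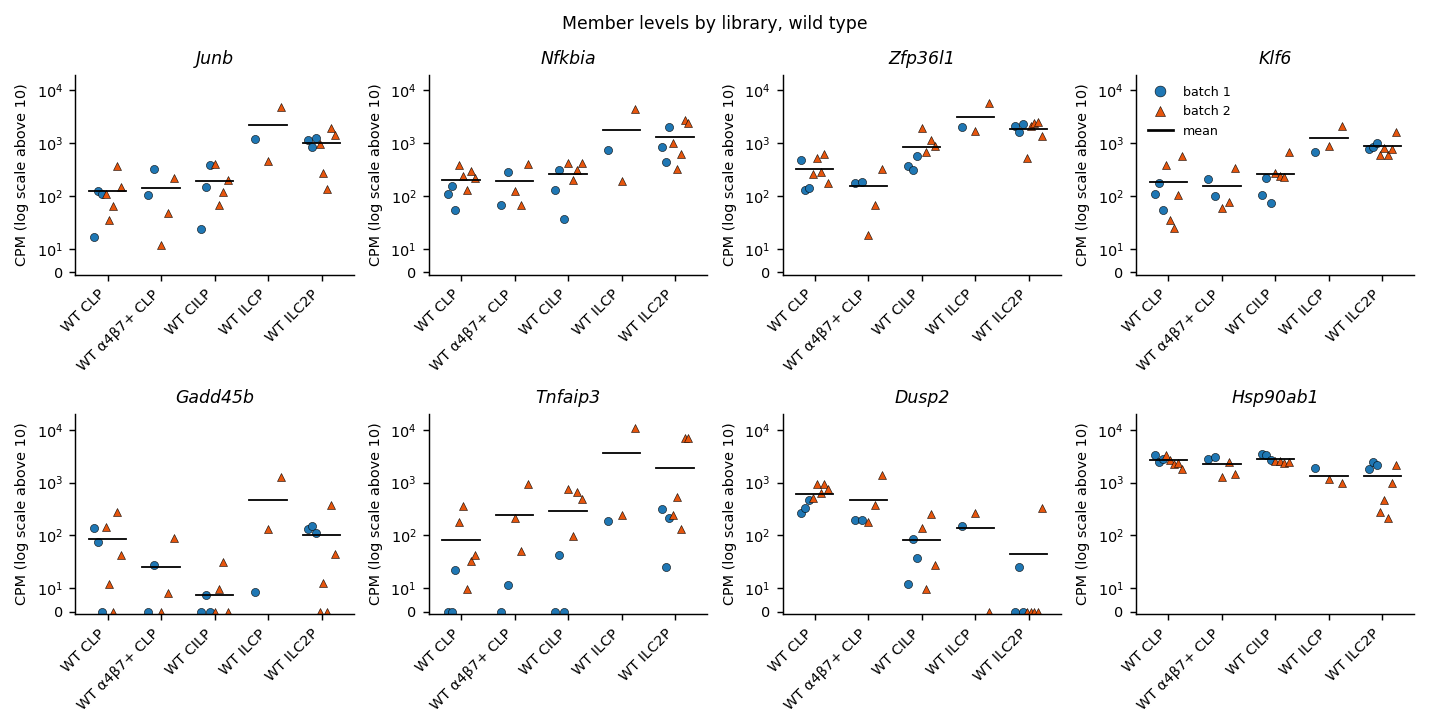
CPM of selected members in the WT libraries, with 1 point per library marked by batch, on an axis that is logarithmic above 10. Junb, Nfkbia and Zfp36l1 lie higher in ILC2P than in CLP in both batches, whereas Dusp2 is high in CLP and at 0 in most ILC2P libraries.

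The first step compared was a4b7_CLP against CLP. No member was called in edgeR, where 0.0456% of the 10972 genes were called, and DESeq2 also called 0. At an unadjusted p under 0.05 there were 0 members higher and 2 lower, and 831 of the 10972 genes passed. The smallest p was that of Myc, which encodes a growth factor-induced regulator of biosynthesis. Myc was at 24, 65.3, 16.4, 43.3 and 42.8 CPM in a4b7_CLP and at 154 to 443 CPM in CLP (median 224), and these ranges did not overlap. Its log2 fold change was -2.63 (SE 0.81, adjusted p = 0.318). Zfp36l1 followed with -1.04 (SE 0.48, adjusted p = 0.616) and Gadd45b, a stress sensor gene, with -1.81 (SE 1.05, adjusted p = 0.764).

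From CLP to CILP 3 members changed, 1 higher and 2 lower, where 4.31% of all genes tested were called. Dusp2, a phosphatase gene that acts on nuclear MAP kinases, fell from 263 to 936 CPM in CLP (median 567) to 9.48 to 254 CPM in CILP (36.6), ranges that did not overlap (log2 fold change -2.86, SE 0.80, adjusted p = 0.0411). Gadd45b fell from 0 to 278 CPM (median 57.5) to 0 to 31.7 CPM, with 4 of the 7 CILP libraries at 0 (log2 fold change -3.43, SE 1.09, adjusted p = 0.0474). Zfp36l1 rose by 1.36 on the log2 scale (SE 0.43, adjusted p = 0.0482), with overlapping libraries. All 3 were close to the threshold: leaving out 1 library at a time gave 0 to 3 calls, and neither batch alone gave any. Dusp2 means were 44.1 against 349.8 CPM in batch 1 and 107 against 749 CPM in batch 2.

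From CILP to ILCP 4 members rose and 0 fell, where 0.374% of all genes tested were called, 34 higher and 7 lower. The AP-1 gene Junb stood at 459, 4895 and 1212 CPM in ILCP against 23.7 to 413 CPM in CILP, with no overlap (log2 fold change 3.51, SE 0.72, adjusted p = 0.00263). Gadd45b was at 133, 1284 and 8.41 CPM (log2 fold change 5.81, SE 1.34, adjusted p = 0.00976), and only the last of these lay within the range of the CILP libraries. Nfkbia was at 193, 4362 and 749 CPM against 36.6 to 420.0 CPM (log2 fold change 2.66, SE 0.64, adjusted p = 0.0127). Ppp1r15a, which encodes the GADD34 subunit that restores translation after stress, was at 331, 2593 and 294 CPM against 18.3 to 241 CPM, again with no overlap (log2 fold change 3.23, SE 0.85, adjusted p = 0.0419). Without ILCP replicate 2 no member was called: the log2 fold changes were then 2.05 for Junb, 3.15 for Gadd45b, 1.02 for Nfkbia and 1.54 for Ppp1r15a, with adjusted p of 0.537, 0.681, 0.803 and 0.77. In ILCP replicate 1, 1.19% of counts were erythroid and megakaryocyte markers; without it and the 4 other libraries with over 1% of counts on markers of other cells, 7 members were higher and 0 lower, where 40 genes were higher and 11 lower of 10762 tested.

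Over all 41 tested members the median log2 fold change from CILP to ILCP was 1.76, where the median of all genes was -0.27. The medians by role were 3.29 for AP-1, 2.20 for the other transcription factors, 2.27 for the regulators, 1.90 for the AU-rich element binding proteins and -1.03 for the heat shock genes. None of the 11 heat shock genes was called. Hsp90aa1 was at 114, 24.2 and 42.1 CPM in ILCP against 49 to 1499 CPM in CILP. At an unadjusted p under 0.05, with ILCP replicate 2 included, 18 members were higher and 3 lower, and 1181 of the 10972 genes passed.

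The ILC2P libraries were compared with CILP and with CLP, and these comparisons share the ILC2P libraries. Against CILP, 5 members rose and 1 fell, where 5.32% of all genes tested were called. Against CLP, 10 members rose and 3 fell, where 11.5% were called. The members that rose in both were Junb, Nfkbia and Klf6.

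The promoters of Junb, Nfkbia and Zfp36l1 are shown because these genes passed against CLP in the model of both batches, in each batch alone and whichever of the 16 ILC2P and CLP libraries was left out. That of Fos is shown as the immediate early gene detected in every library. Each line gives the 250 bases before the annotated start, 5′ to 3′ on the strand of the gene, from RefSeq on GRCm38.p6: Junb at chr8:84978749-84978998 (minus strand), Nfkbia at chr12:55492648-55492897 (minus), Zfp36l1 at chr12:80113014-80113263 (minus) and Fos at chr12:85473640-85473889 (plus). Capitals mark a match to one of 6 motifs searched on both strands.
Junb: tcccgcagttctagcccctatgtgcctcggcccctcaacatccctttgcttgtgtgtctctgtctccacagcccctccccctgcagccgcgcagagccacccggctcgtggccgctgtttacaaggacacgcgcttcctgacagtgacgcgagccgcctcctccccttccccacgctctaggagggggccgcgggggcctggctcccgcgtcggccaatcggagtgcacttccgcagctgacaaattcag
Nfkbia: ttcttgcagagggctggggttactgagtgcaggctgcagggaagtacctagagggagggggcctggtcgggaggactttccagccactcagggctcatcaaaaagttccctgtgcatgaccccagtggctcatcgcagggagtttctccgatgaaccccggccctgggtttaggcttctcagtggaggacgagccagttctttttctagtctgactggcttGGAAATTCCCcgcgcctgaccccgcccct
Zfp36l1: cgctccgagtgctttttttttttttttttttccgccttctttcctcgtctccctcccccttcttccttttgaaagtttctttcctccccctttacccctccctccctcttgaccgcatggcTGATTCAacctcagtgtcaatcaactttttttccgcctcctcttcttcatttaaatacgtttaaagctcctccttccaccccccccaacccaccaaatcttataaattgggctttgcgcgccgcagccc
Fos: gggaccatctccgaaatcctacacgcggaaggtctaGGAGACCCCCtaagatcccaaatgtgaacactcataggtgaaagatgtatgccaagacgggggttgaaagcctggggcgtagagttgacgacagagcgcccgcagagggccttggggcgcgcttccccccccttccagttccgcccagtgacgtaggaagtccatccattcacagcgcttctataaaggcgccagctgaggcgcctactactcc

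The first motif was TGANTCA, with any base at N, a looser pattern than the AP-1 site proper. The others were the cyclic AMP response element (TGACGTCA), the CArG box bound by SRF and the κB site. The heat shock element (GAANNTTCNNGAA) and the EGR site (GCGNGGGCG) were also searched. Windows of 300 bases, from 250 before to 50 after the start, were at hand for 36 members among 32851 windows in all. A member was counted if any of its windows matched, whereas the percentages are of single windows. The counts and percentages are therefore unlike measures where a gene has several windows. A κB site lay in a window of 12 members, Nfkbia (bases 222 to 231) and Fos (bases 37 to 46) among them, and in 8.46% of all windows. A match to TGANTCA lay in a window of 3 members and in 7.81% of all windows, with that of Zfp36l1 (TGATTCA) at bases 122 to 128. The heat shock element lay in 3 members (Hspd1, Hspe1 and Hsph1) and in 0.603% of all windows, the EGR site in 11 members and 5.55%, the CArG box in 3 and 1.63%, and the cyclic AMP response element in 3 and 1.79%. No match was found in the 250 bases shown for Junb. No window was used for Hsp90ab1, Cd69, Hspa8, Zfp36l2, Egr1, Ier2, Myc, Egr3 and Hsp90aa1.

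Junb and Nfkbia rose in ILC2P against both CLP and CILP. Junb was at 17 to 376 CPM in CLP (median 109), 23.7 to 413 in CILP (147) and 133 to 1942 in ILC2P (1056). ILC2P replicates 2 and 3 (276 and 133 CPM) lay within the range of CLP and CILP, and the other 6 lay above both. The log2 fold change was 3.03 against CLP (SE 0.54, adjusted p = 9.48e-05) and 2.38 against CILP (SE 0.55, adjusted p = 0.00832). In batch 1 the Junb means were 1088 CPM in ILC2P, 185 in CILP and 83.1 in CLP, and in batch 2 they were 951, 199 and 147 CPM.

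Nfkbia, the gene of the NF-κB inhibitor that is itself induced by NF-κB, was at 55.1 to 383 CPM in CLP (median 185), 36.6 to 420.0 in CILP (308) and 326 to 2705 in ILC2P (924). Only ILC2P replicate 2 lay within the range of the other populations. The log2 fold change was 2.76 against CLP (SE 0.47, adjusted p = 2.83e-05) and 2.33 against CILP (SE 0.48, adjusted p = 0.00214). Klf6, whose values are given above, rose by 2.35 against CLP (SE 0.51, adjusted p = 0.00122) and by 1.84 against CILP (SE 0.52, adjusted p = 0.0302). The call for Klf6 against CILP was lost in 6 of 15 fits that left out 1 library, at most to an adjusted p of 0.0647, while Junb and Nfkbia passed in all 15.

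Zfp36l1 rose by 2.54 against CLP (SE 0.41, adjusted p = 1.11e-05). Only ILC2P replicate 1, at 518 CPM, lay within the CLP range. In batch 1 its means were 2005 against 252 CPM, and in batch 2 they were 1781 against 370.3 CPM. Within batch 1 alone the adjusted p was 4.6e-07 for Zfp36l1, 7.28e-06 for Junb and 3.72e-05 for Nfkbia, and within batch 2 alone it was 0.0141, 0.0204 and 0.0135. No other member higher in ILC2P than in CLP was called in both batches.

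The remaining members higher in ILC2P than in CLP spread more widely. Tnfaip3 had a log2 fold change of 4.68 (SE 0.90, adjusted p = 0.00167), Fosb of 3.56 (SE 0.81, adjusted p = 0.00799) and Dusp1, a MAP kinase phosphatase gene, of 3.66 (SE 1.34, adjusted p = 0.0412). Dusp1 was at 0 in 4 of 8 ILC2P libraries and reached 178 CPM, against at most 17 CPM in CLP, and its call was lost in 9 of 16 fits that left out 1 library, with 2.72 on the log2 scale and an adjusted p of 0.17 without ILC2P replicate 5. Ier5, an early response gene, was at 22 to 201 CPM in CLP and 0 to 1764 in ILC2P (log2 fold change 2.41, SE 0.67, adjusted p = 0.0176). Btg1 rose by 1.76 (SE 0.47, adjusted p = 0.0114), with means of 4689.7 against 1589.6 CPM in batch 1 and 585 against 162 CPM in batch 2. Zfp36 rose by 2.47 (SE 0.79, adjusted p = 0.0457), a call lost in 12 of 16 such fits, and at 1.94 on the log2 scale without ILC2P replicate 5.

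Gadd45b and Ier2 passed against CILP and not against CLP. Gadd45b was at 0 to 374 CPM in ILC2P (median 78.1), which overlapped CLP (0 to 278), and its log2 fold change against CILP was 3.77 (SE 1.10, adjusted p = 0.0286). Ier2 was at 30.5 to 947 CPM in CLP, 47.5 to 1115 in CILP and 276 to 3741 in ILC2P, and its log2 fold change against CILP was 1.60 (SE 0.51, adjusted p just under 0.05). Whether a member's change differed between the 2 comparisons was not tested. Without ILC2P replicate 4 the adjusted p of Gadd45b was 0.116 and that of Ier2 0.17, and Ier2 missed the threshold in 11 of 15 fits that left out 1 library.

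Lower in ILC2P than in CLP were Dusp2 and both cytosolic HSP90 genes. Dusp2 had counts in 2 of 8 ILC2P libraries, at 326 and 24.7 CPM, against 263 to 936 CPM in CLP (log2 fold change -3.91, SE 0.86, adjusted p = 0.0023). Hsp90ab1 fell by 1.14 on the log2 scale against CLP (SE 0.31, adjusted p = 0.0108) and by 1.16 against CILP (SE 0.32, adjusted p = 0.021). Its ILC2P means were 2111 CPM in batch 1 against 2853 in CLP, and 822 in batch 2 against 2494. Hsp90aa1, the inducible HSP90, was at 0 to 179 CPM in ILC2P and 109.9 to 792 in CLP (log2 fold change -1.84, SE 0.58, adjusted p = 0.0336). Without the 2 shallowest ILC2P libraries (replicates 1 and 3) none of the 3 HSP90 calls was made: the log2 fold change of Hsp90ab1 was then -0.80 against CLP (adjusted p = 0.0739) and -0.85 against CILP (adjusted p = 0.0952), and that of Hsp90aa1 -1.51 (adjusted p = 0.117). In batch 1 alone Hsp90ab1 was at -0.49 against CLP (adjusted p = 0.409) and in batch 2 alone at -1.55 (adjusted p = 0.0425).

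**Figure D3:**
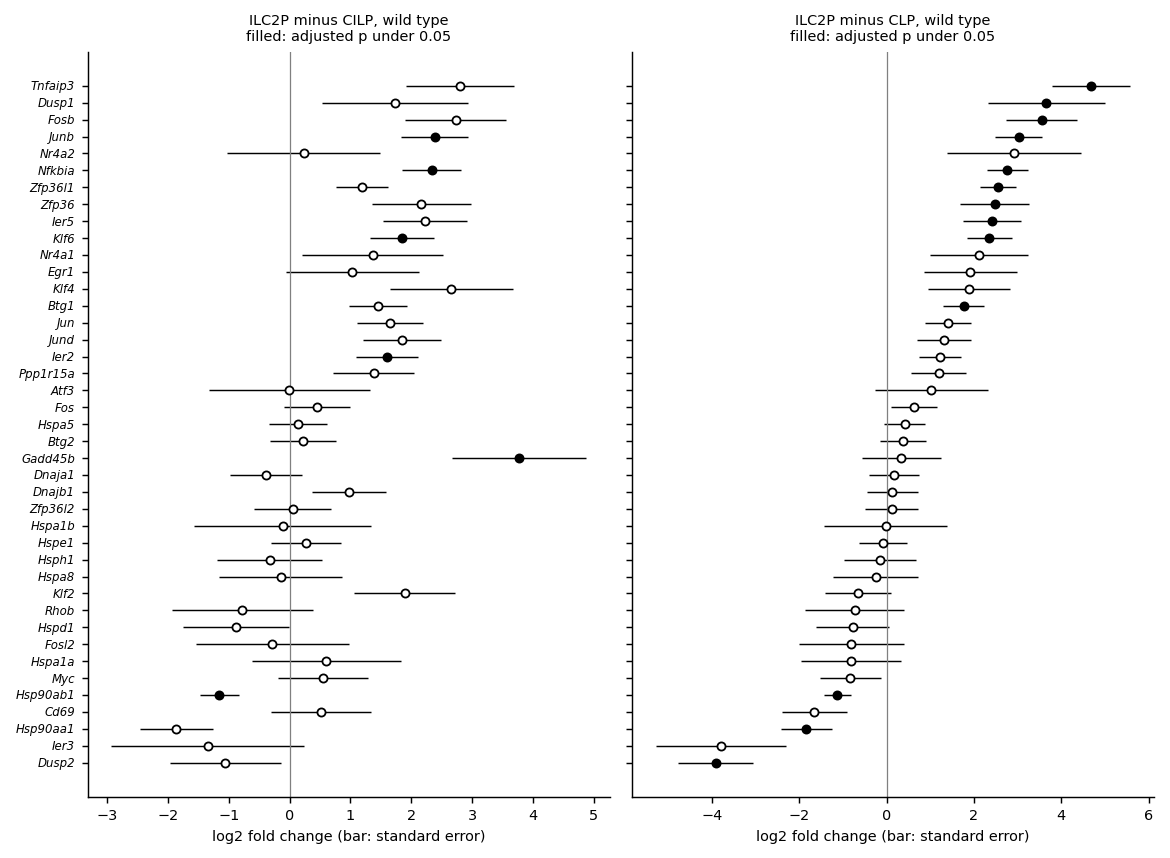
Log2 fold change of the tested members in WT ILC2P against CILP (left) and against CLP (right), with bars of 1 SE and filled points for an adjusted p under 0.05. Tnfaip3 (4.68), Dusp1 (3.66) and Fosb (3.56) lead against CLP, and Dusp2 (-3.91) is at the other end.

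The median log2 fold change of the 41 tested members in ILC2P was 0.60 against CILP and 0.42 against CLP, where the medians of all genes were -0.55 and -0.43. With DESeq2 size factors in edgeR the all-gene medians moved to -0.23 and -0.18, and 10 members were then higher and 0 lower against CILP, and 11 higher and 2 lower against CLP. Over all genes, 121 were called higher and 463 lower against CILP, and 160 and 231 with those size factors. Against CLP the split went from 380 higher and 878 lower to 492 and 608. DESeq2 itself called 15 members higher and 0 lower against CILP, where it called 4.26% of all genes, and 12 and 3 against CLP, where it called 9.19%. Without the 2 shallowest ILC2P libraries 8 members were higher and 0 lower against CILP, and 12 and 2 against CLP. Batch 2 alone gave 0 higher and 1 lower against CILP, and batch 1 alone 6 and 0. The shares of all genes called without the shallow libraries and in single batches are not given here. Those counts therefore show only how the member calls moved with the processing.

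By role, the medians against CLP were 1.31 for AP-1 (2 of 7 called higher), 1.92 for the other transcription factors (1 of 7 tested), 1.19 for the regulators (5 higher and 1 lower of 13), 2.47 for the AU-rich element binding proteins (2 of 3) and -0.16 for the heat shock genes (0 higher and 2 lower of 11). Fos was not called in either comparison, with 0.62 against CLP (SE 0.52, adjusted p = 0.495) and 0.45 against CILP (SE 0.54, adjusted p = 0.707), and the libraries overlapped. In batch 1 alone it was higher than in CLP by 1.62 (adjusted p = 0.00644). In batch 2 its means were 1339 CPM in ILC2P and 1519 CPM in CLP, and its medians 725 and 1262 CPM.

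In the knockout libraries the targeted gene was read first. Tcf7 was at 166 to 779 CPM in the 7 WT CILP libraries and at 0 to 63.4 CPM in the 4 Tcf7-/- CILP libraries, with counts in 3 of them. WT CLP and ILC2P hold little Tcf7 (counts in 1 of 8 and 3 of 8 libraries), so it checks nothing there. Id2 was at 79.6 to 2286 CPM in WT CILP and at 116 and 27.1 CPM in the Id2-/- CILP libraries, of which 1 lay within the WT range. No source used here says whether the counted tags fall in the deleted part of either gene.

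Without Tcf7, no member was called in CLP, CILP or ILC2P in edgeR, where 0%, 0.501% and 2.57% of all genes tested were called. At an unadjusted p under 0.05 there were 1 higher and 3 lower in CLP, 2 and 1 in CILP, and 2 and 6 in ILC2P, where 713, 1215 and 1650 of the 10972 genes passed. DESeq2 called 0 in CLP, 0 in CILP, and 0 higher and 4 lower in ILC2P (1.42% of all genes), namely Fos, Junb, Klf4 and Tnfaip3. Fos was at 526 and 72.8 CPM in the 2 Tcf7-/- ILC2P libraries against 413 to 3586 CPM in WT (edgeR log2 fold change -2.77, SE 0.85, adjusted p = 0.161). Junb was at 113 and 194 CPM against 133 to 1942 CPM (-2.68, SE 0.86, adjusted p = 0.16). The replicate at 526 CPM of Fos and 113 CPM of Junb is the one with 19.99% of its counts on B and plasma cell markers, whose part in the result was not tested.

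Klf4, a zinc finger factor gene, had 0 counts in both Tcf7-/- ILC2P libraries, at least 12.5-fold lower than the WT mean of 114 CPM by a floor of 3 counts over the group (adjusted p = 0.0984). That mean and bound rest largely on WT replicate 4, at 647 CPM, with 2 of the other 7 WT libraries at 0 and the rest at 11.9 to 88.9 CPM. The summed immediate early share of these libraries was 0.470% and 0.396%, below all 8 WT ILC2P libraries, which began at 0.657%. Both libraries were of batch 2, where the 5 WT libraries ran from 0.657% to 4.98%. The 2 libraries differ from each other in the heat shock share, at 0.106% and 0.515%.

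In Tcf7-/- CLP the smallest p values were those of Btg1 (log2 fold change -1.55, SE 0.56, adjusted p = 0.567), Gadd45b (-3.02, SE 1.20, adjusted p = 0.627) and Nr4a2 (3.72, SE 1.59, adjusted p = 0.631). Btg1 was at 0, 0, 693, 896 and 855 CPM, with both zeros in batch 2, where WT CLP was also low. The immediate early share of Tcf7-/- CLP was 0.499% ± 0.0628 (SD, n = 5). The 3 Tcf7-/- CLP libraries of batch 1 (0.489%, 0.414% and 0.524%) lay below the 3 WT CLP libraries of that batch (0.772% to 0.911%), and the 2 of batch 2 (0.586% and 0.483%) within those of batch 2 (0.328% to 0.991%). In Tcf7-/- CILP the smallest were Klf2, a factor of lymphocyte quiescence and homing (2.25, SE 0.97, adjusted p = 0.358), Atf3 and Ppp1r15a (1.66, SE 0.79, adjusted p = 0.413). Ppp1r15a was at 180.0, 276, 0 and 854 CPM against 18.3 to 241 CPM in WT CILP, and its log2 fold change without replicate 4, at 854 CPM, was 0.34. Klf2 was at 299.9, 101, 63.8 and 53.4 CPM against 0 to 97.9 CPM in WT CILP. Atf3 had no count in the 4 libraries, at least 5.34-fold lower than the WT mean of 32.1 CPM (adjusted p = 0.368). Tcf7-/- CILP replicates 1 and 4 hold erythroid and megakaryocyte markers as given above. Within batch 1 alone Fos was called lower in Tcf7-/- CILP, at 63.8 and 231 CPM against 641, 1287 and 1445 CPM (log2 fold change -2.94, adjusted p = 0.000203, where 0.751% of all genes were called), whereas in batch 2 it was at 639.9 and 3309 CPM against 662 to 3046 CPM in WT.

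Without Id2, no member was called in CLP or in CILP in edgeR over both batches, where 0.0365% and 0.0911% of all genes tested were called, and DESeq2 called 0 in each. At an unadjusted p under 0.05, 0 members were higher and 6 lower in CLP, and 0 and 2 in CILP, where 348 and 687 of the 10972 genes passed. Fos came first in both. It was at 152 and 163 CPM in Id2-/- CLP, below all 8 WT CLP libraries (334 to 2663 CPM; log2 fold change -2.54, SE 0.87, adjusted p = 1). In Id2-/- CILP it was at 61.3 and 267 CPM, below all 7 WT CILP libraries (641 to 3046 CPM; -2.65, SE 0.88, adjusted p = 0.566). Fosb was at 0 and 3.97 CPM in Id2-/- CLP and at 0 and 13.6 CPM in CILP, again below all WT libraries of the same population (CILP log2 fold change -4.02, SE 1.85, adjusted p = 0.734).

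All Id2-/- libraries were of batch 1, and in a model of batch 1 alone 3 members were lower and 0 higher in Id2-/- CLP, and 2 lower and 0 higher in CILP, where 0.104% and 1.04% of all genes were called. They were Fos (log2 fold change -2.16, adjusted p = 0.0335), Jun (-2.16, adjusted p = 0.000173) and Fosb (-5.16, adjusted p = 0.0106) in CLP, and Fos (-2.81, adjusted p = 8.27e-05) and Fosb (-4.56, adjusted p = 0.00196) in CILP. Jun was at 641 and 719 CPM in Id2-/- CLP against 3648, 1899 and 3349 CPM in the WT CLP libraries of that batch. In CILP it was at 2261 and 1329.6 CPM against 2469.5, 2357 and 1134 CPM. Low Fos, Fosb and Jun in batch 1 was not particular to Id2-/- CLP. The Tcf7-/- CLP libraries of batch 1 held 71.9, 248 and 487 CPM of Fos, against 543, 543 and 991 CPM in WT. They held 6.53, 4.77 and 14.9 CPM of Fosb, against 42.4, 244 and 55.1 CPM. Jun was at 1424, 1406 and 1287 CPM in them, below the WT CLP libraries of batch 1 and above the Id2-/- CLP libraries. The Tcf7-/- CLP libraries of batch 2 (626 and 449 CPM of Fos, 53.6 and 192 CPM of Fosb) lay within or above the WT CLP range of that batch. For Jun they held 259 and 346 CPM, within the WT CLP range of batch 2 (176 to 964 CPM). The immediate early share was 0.419% and 0.389% in Id2-/- CLP and 0.523% and 0.441% in Id2-/- CILP, below the 3 WT libraries of batch 1 in each population, at 0.772% to 0.911% in CLP and 0.696% to 0.888% in CILP. The WT libraries of batch 2 reached down to 0.328% in CLP and 0.393% in CILP. The test of whether the Id2 effect differed between CILP and CLP called Jun within batch 1 (1.97, adjusted p = 0.0376, where 0.404% of all genes were called) but 0 members over both batches, where 2 were higher and 1 lower at an unadjusted p under 0.05 (528 of the 10972 genes), DESeq2 called 0 and 0.0365% of all genes were called. Ier3 had 0 counts in both Id2-/- CLP libraries, at least 14.9-fold lower than the WT mean of 113 CPM, where 3 of 8 libraries had counts, 1 of them at 690.1 CPM. That bound crosses the batches: the 690.1 CPM library was of batch 2, and the 3 WT CLP libraries of batch 1 were at 33.9, 0 and 0 CPM. The Id2-/- CILP libraries hold few counts on CILP markers, as given above, and the part of this in the CILP values was not tested.

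Ier2 was at 34.4 and 23.8 CPM in Id2-/- CLP against 30.5 to 947 CPM in WT (log2 fold change -2.24, SE 0.88, adjusted p = 1). That range crosses the batches: the 947 CPM library was of batch 2, and the WT CLP libraries of batch 1 were at 144, 30.5 and 330 CPM. Myc, in contrast, was at 325 and 244 CPM in Id2-/- CILP against 0 to 301 CPM in WT CILP (1.99, SE 1.13, adjusted p = 0.797). The Tcf7 effect was not called different between CILP and CLP for any member (0 in edgeR and 0 in DESeq2, 1 higher and 2 lower at an unadjusted p under 0.05 along with 996 of the 10972 genes, 0.0456% of all genes called). The knockout comparisons share the WT libraries, so their values stand side by side and are not independent of each other.

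**Figure D4:**
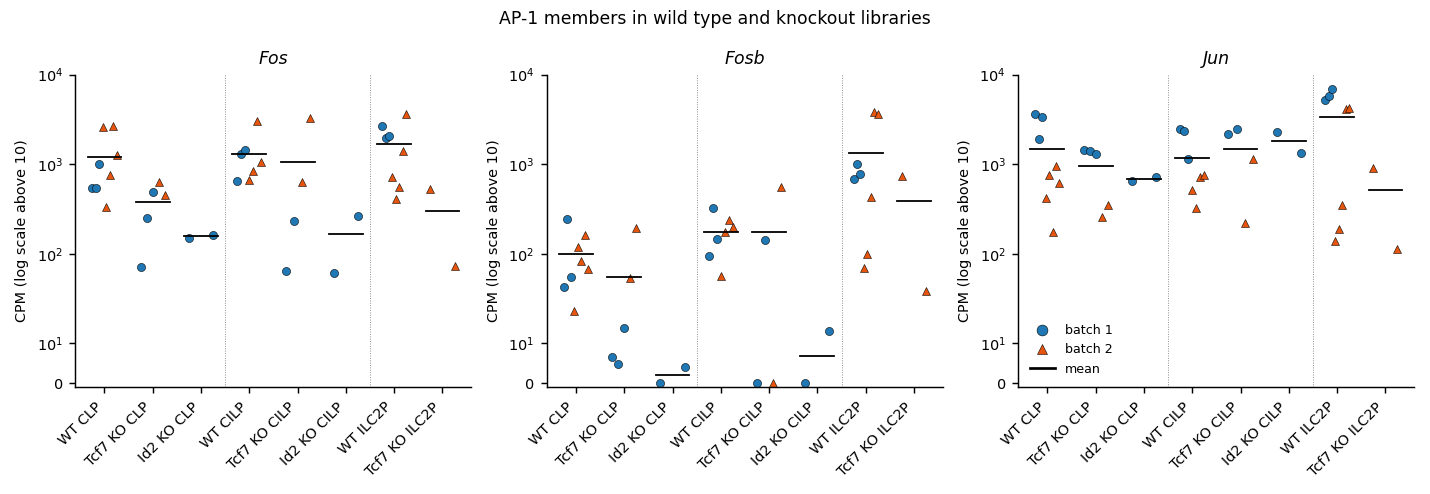
CPM of AP-1 members in WT, Tcf7-/- and Id2-/- libraries, with 1 point per library marked by batch, on an axis that is logarithmic above 10. The 2 Id2-/- CLP libraries (152 and 163 CPM) and the 2 Id2-/- CILP libraries (61.3 and 267 CPM) lie below the WT libraries of the same population for Fos. The Tcf7-/- CLP libraries of batch 1 (71.9, 248 and 487 CPM) lie below the WT CLP libraries of that batch, and those of batch 2 (626 and 449 CPM) do not.

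The libraries also differed by batch. Between batch 2 and batch 1, with group held constant, 10 members were higher and 4 lower, where 16.3% of all genes tested were called. Tnfaip3 was detected in 25 of 25 libraries of batch 2 (median 242 CPM) and in 13 of 22 of batch 1 (6.51 CPM), a log2 difference of 4.45 (SE 0.64, adjusted p = 5.03e-06). Cd69, the early activation marker, had medians of 162 and 16.1 CPM (3.23, SE 0.51, adjusted p = 1.12e-06), and Ier2 had 662 and 149 CPM (2.18, SE 0.32, adjusted p = 2.39e-07). Atf3 was detected in 11 libraries of batch 2 and in 1 of batch 1 (5.28, SE 1.54, adjusted p = 6.54e-05).

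In the other direction, Btg1 had medians of 158 CPM in batch 2 and 1422 in batch 1 (-3.35, SE 0.30, adjusted p = 1.09e-12), Jund 31.7 and 243 CPM (-2.96, SE 0.40, adjusted p = 1.6e-09), and Jun 459 and 2203 CPM (-2.07, SE 0.34, adjusted p = 1.59e-05). Every batch 1 library had at least 692.5 CPM of Btg1. Hsp90ab1 was also lower in batch 2 (-0.70, SE 0.20, adjusted p = 0.0093). Higher in batch 2 were further Zfp36 (2.24, SE 0.52, adjusted p = 0.0039), Hsph1 (2.43, SE 0.54, adjusted p = 0.0039), Dusp2 (1.71, SE 0.52, adjusted p = 0.0206), Hsp90aa1 (1.17, SE 0.37, adjusted p = 0.0354), Hspd1 (1.68, SE 0.55, adjusted p = 0.0406) and Nr4a1 (2.49, SE 0.76, adjusted p = 0.0447). AP-1 members thus moved both ways, and the labels do not say what differed between the batches.

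**Figure D5:**
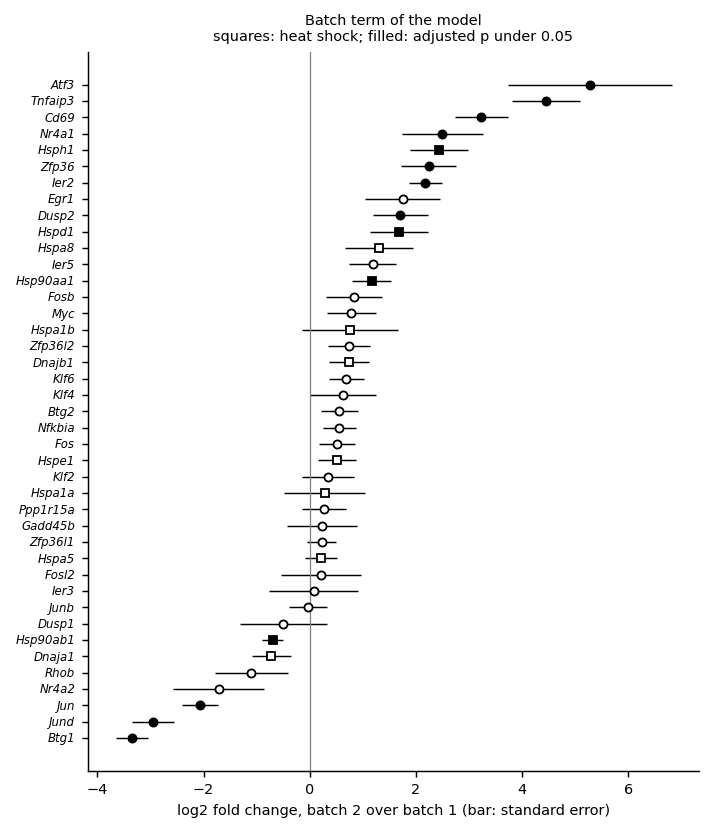
Log2 fold change of the tested members between batch 2 and batch 1, from the batch term of the model over all 47 libraries, with bars of 1 SE, squares for heat shock genes and filled points for an adjusted p under 0.05. Atf3 (5.28) and Tnfaip3 (4.45) lead the members higher in batch 2, and Btg1 (-3.35) and Jund (-2.96) those lower.

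Other genes of the same pathways were followed in 4 lists. Of 20 NF-κB pathway genes, all tested, Nfkbiz, which encodes an inducible nuclear IκB protein, rose in ILC2P against CLP (3.06, SE 0.69, adjusted p = 0.0028) and against CILP (3.19, SE 0.73, adjusted p = 0.0104) and in ILCP against CILP (4.05, SE 0.94, adjusted p = 0.0183). Its mean was 522 ± 586 CPM in ILC2P (SD, n = 8) against 63.2 ± 67.8 in CLP (n = 8) and 50.5 ± 42.9 in CILP (n = 7), and the 3 ILCP libraries ran from 4.94 to 3271 CPM (mean 1134), so that a single library carried most of the ILCP level. Against CLP, 3 genes of the list were called higher and 1 lower. Nfkb2 rose (3.45, SE 1.04, adjusted p = 0.016), while Rel, the NF-κB subunit of activated lymphocytes, fell (-4.68, SE 1.88, adjusted p = 0.0169) and had counts in 1 of 8 ILC2P libraries. Against CILP, 1 was higher and 2 lower, with Rel (-4.69, SE 1.90, adjusted p = 0.031) and Traf2 (-3.47, SE 1.09, adjusted p = 0.0491) lower. Traf2 was the 1 gene of the list higher in CILP than in CLP (3.70, SE 1.02, adjusted p = 0.0258), at 121 ± 212 CPM (SD, n = 7) against 18.5 ± 21.1 (n = 8), with 1 CILP library at 595 CPM that carried most of the CILP mean. The median log2 fold change of the list against CLP was 0.42.

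Of 36 genes of MAP kinases, SRF and its cofactors and other bZIP factors, 28 were tested. Against CLP, 1 was higher and 3 lower in ILC2P. Mafk and Dusp6, the gene of an ERK phosphatase induced by ERK signalling, had 0 counts in all 8 ILC2P libraries, against means of 59.5 ± 51.5 and 46.2 ± 48.9 CPM in CLP (SD, n = 8; adjusted p = 0.0036 and 0.0259). Srf was at 15.1 ± 26.7 CPM in ILC2P against 185 ± 382 in CLP (-3.50, SE 1.03, adjusted p = 0.0152), with 1 CLP library at 1128 CPM that carried most of the CLP mean. Against CILP, 0 were higher and 3 lower, and these were Mafk, Batf3 and Dusp6, all at 0 counts in ILC2P. Elk4 was the 1 gene of the list higher in CILP than in CLP (4.15, adjusted p = 0.0421). The shallow ILC2P libraries limit what a 0 shows here.

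Of 40 further heat shock factors, chaperones and cochaperones, 37 were tested. In ILC2P 0 were higher and 3 lower than in CLP, where 11.5% of all genes were called and 878 of them were lower. They were Hspbp1 (-2.90, SE 0.85, adjusted p = 0.0171), the chaperonin subunit gene Cct3 (-1.73, SE 0.59, adjusted p = 0.0435) and the HSP90 cochaperone gene Fkbp4 (-1.58, SE 0.55, adjusted p = 0.0472). Against CILP, Cct3 (-2.07, SE 0.60, adjusted p = 0.0302) and Fkbp4 (-1.83, SE 0.57, adjusted p = 0.0404) were lower and Dnaja4 was higher (4.81, SE 1.60, adjusted p = 0.0321). Bag3, a cochaperone gene induced by HSF1, was higher in Tcf7-/- CILP, at 111 ± 120 CPM (SD, n = 4) with counts in 3 libraries against 1 of 7 in WT (5.97, SE 1.93, adjusted p = 0.0492). The median of the list in ILC2P against CLP was -0.59 and that of all genes -0.43.

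Of 20 genes of the unfolded protein response, 19 were tested. Against CLP, 0 were higher and 3 lower in ILC2P. Canx, the gene of calnexin, was at 158 ± 95.4 CPM against 728 ± 469 (-1.86, SE 0.43, adjusted p = 0.00232), and Pdia6 at 159 ± 157 against 559.8 ± 375 CPM (SD, n = 8 each; -1.88, SE 0.53, adjusted p = 0.0126). Edem1 had 0 counts in all ILC2P libraries (adjusted p = 0.0467). Against CILP, 0 were higher and 2 lower, Canx (-1.67, SE 0.44, adjusted p = 0.0171) and Eif2ak3. In Tcf7-/- ILC2P 2 were higher, Xbp1, which drives plasma cell secretion (2.92, SE 0.98, adjusted p = 0.0406), and Edem1 (adjusted p = 0.00277). Xbp1 stood at 2006 and 189 CPM in replicates 1 and 2, and Edem1 at 825 and 0 CPM. Replicate 1 is the library with 19.99% of its counts on B and plasma cell markers, whose part in both calls was not tested.

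The 12 control wells were set up with spike-in RNA only, without cells. They had 51 to 9439 counts each and 23418 in all, of which 247 (1.055%) were on members, in 8 of the 12 wells. The share of the members in the 47 libraries was near this in CLP, at 1.23% ± 0.283 (SD, n = 8), and CILP, at 1.25% ± 0.253 (n = 7). The totals of the wells were below those of the 47 libraries. The well with the most member counts had 140 of its 6936 on them. That well, of batch 1, also held 0.663% on CILP markers and 0.908% on ILCP and ILC2P markers. Another batch 1 well held 4.89% on myeloid markers. Among the batch 2 wells, only replicate 4 had a member count, 1 of its 311. The source of the mouse counts in these wells was not tested.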

How the data were processed

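CEL-seq libraries of 100 sorted mouse bone marrow cells were measured. Raw read counts per Entrez gene were deposited by the authors in 2 tables, 1 per batch; the submitters' processing notes name CASAVA 1.8.2, mm10, featureCounts, limma and edgeR 3.8.2 and 3.22.0, and the aligner and strand setting are not given in the sources used here. Of 27179 gene identifiers, 25275 (92.99%) matched RefSeq. The 70 samples became 66 libraries after 4 technical repeats were summed, and 47 were modelled. The 12 control wells, 6 libraries labelled Nfil and 1 labelled an outlier were not.

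Genes were filtered by group (minimum count 10, minimum total 15), scaled by TMM and tested in edgeR 4.0.16 (R 4.3.3) with robust quasi-likelihood and terms for group and batch, with 35 residual degrees of freedom and a biological coefficient of variation of 109.7%. SE is the Wald standard error. CPM is the count over the filtered total times the TMM factor. Shares are percent of the library's raw total. Total counts of 19322 to 624668 set the precision, and counting does not separate PCR copies here. The fit was tested on simulated data.

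DESeq2 1.42.0 and edgeR with the size factors of DESeq2 were run as alternatives. So were edgeR fits without the filter, without the batch term, on batch 1 or 2 only, with the outlier, and without the shallow libraries or any single library. Leaving out the 5 libraries with over 1% of counts on markers of other cells was added after seeing the data. Named were the members called in a comparison, or the 3 with the smallest p where fewer were called, the 3 of each role with the highest mean CPM, and up to 3 called genes of each pathway list. Others named beside them were chosen after their values were seen. The members and lists were chosen with earlier results of these data known.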

Additional observations from a re-analysis of the deposited data

Results flagged for a closer look

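In 23 of 132 groups of 4 to 10 libraries (17.4%) the highest library stood apart from the next by the gap criterion. About 1 group in 20 meets it when values are normally distributed. The CPM are skewed with many zeros, so the rate to be met by chance is not known here. Several fell in a4b7_CLP replicate 3, which held 0.165% of its counts on early transcription factors against 0.0519% in the next library and 0.199% on AU-rich element binding proteins against 0.0635%. Its levels were 1402 CPM for Dusp2 (next 368), 951 for Tnfaip3 (216) and 1369 for Zfp36 (222). In a4b7_CLP replicate 2 Hsp90aa1 was at 715 CPM (210).

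Among WT CLP, replicate 4 held 0.155% on AU-rich element binding proteins (next 0.0868%) and 376 CPM of Junb (150), and replicate 6 held 17.0 CPM of Dusp1 (7.67). Among WT CILP, replicate 3 held 31.7 CPM of Gadd45b (9.48), 1499 of Hsp90aa1 (399) and 1341 of Zfp36 (368), replicate 1 held 1115 of Ier2 (396), and replicate 4 held 592 of Ier5 (204) and 689 of Klf6 (271). Among WT ILC2P, replicate 5 held 326 CPM of Dusp2 (24.7) and 1645 of Klf6 (1005), and replicate 4 held 374 of Gadd45b (148).

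Tcf7-/- CILP replicate 1, which has 1.32% of its counts on erythroid and megakaryocyte markers, held 0.2% on early transcription factors (next 0.0539%) and 1160 CPM of Klf6 (307). Tcf7-/- CILP replicate 2 held 44.4 CPM of Dusp1, with 0 in the others. In Tcf7-/- CLP, replicate 5 held 4.97 CPM of Dusp1, with 0 in the others, and replicate 2 held 192 CPM of Fosb (53.6).

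Outside the comparisons, members took 0.724% of the counts in the CILP library labelled an outlier. The libraries labelled Nfil held 0.960% and 0.692% in CLP, 0.340% in CILP replicate 1 and 1.73% and 0.959% in ILC2P. CILP replicate 2 of that label had 296 counts in all and is not read here.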

How the results depend on the processing

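Members called differed by more than 1.5 times from the main count in these alternatives. The genes tested and called over all genes also differed between settings. These counts, and those with 1 library left out, therefore show how the member calls moved. They do not show how the members compare with other genes. DESeq2 called 8 members for ILCP against CILP, 15 for ILC2P against CILP and 4 for Tcf7-/- ILC2P. DESeq2 size factors in edgeR gave 10 for ILC2P against CILP. Without the filter there were 11 for ILCP against CILP, 12 for ILC2P against CILP and 3 for Tcf7-/- ILC2P. Without the batch term CILP against CLP gave 1. Batch 1 alone gave 0 for CILP against CLP, 1 for ILCP against CILP, 1 for Tcf7-/- CILP, 3 for Id2-/- CLP, 2 for Id2-/- CILP and 1 for the Id2 effect between CILP and CLP. Batch 2 alone gave 0 for CILP against CLP, 0 for ILCP against CILP, 1 for ILC2P against CILP and 5 for ILC2P against CLP. With the outlier put back ILC2P against CILP gave 10, and without the libraries with markers of other cells ILCP against CILP gave 7. Single batches hold fewer libraries, but the cause of these differences was not tested.

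Leaving out 1 library at a time gave 0 to 3 for CILP against CLP, 0 to 6 for ILCP against CILP (0 without ILCP replicate 2), 3 to 9 for ILC2P against CILP (3 without CILP replicate 5), 10 to 13 for ILC2P against CLP, 0 to 1 for Tcf7-/- ILC2P (1 without ILC2P replicate 4 or 5), 11 to 15 for the batch and 0 elsewhere. Where a group was left with 1 library, it was assumed to vary like the others. Of the values of named genes, 1679 kept their direction and side of the threshold, 200 no longer passed, 7 passed newly and 0 reversed.

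Of the mean shares under another denominator or with 1 library left out, 6 moved by over 1 SD, all 6 with the TMM-scaled total as denominator, and 342 moved by less. No paired analysis was possible because replicate numbers were given in accession order and pair no libraries. The shallow ILC2P libraries limit what can be seen of sparse members.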
